A study of Mus musculus with 21 samples.

Results

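Testis RNA of Spo11 knockout mice was set against wild type testis RNA on 4 of the series' 21 arrays. Each array carried total RNA of whole testis from the knockout in one channel and of whole testis from the wild type in the other. The 4 arrays were chosen by these labels alone, and no measured value entered the choice. Values on 3 or more of the 4 arrays were required of a gene, which held for 4745 of the 7117 genes named on the array. Knockout RNA was in channel 2 on replicates 1 and 2 and in channel 1 on replicates 3 and 4. The knockout allele, the strain, the age of the knockout and wild type mice, the number of animals behind an RNA and any pooling were not given in the sources used here. The p-values below thus cover the variation from array to array, which can be purely technical, and not that between animals.

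Spo11 is the enzyme that cuts DNA at the start of meiotic recombination. In male mice without it, homologous chromosomes do not pair and synapse properly, spermatocytes are lost during meiotic prophase, and the tubules hold spermatogonia, early spermatocytes and somatic cells but no spermatids. Whole testis RNA pools all of these cells. A changed number or share of cells of a type thus cannot be told apart from changed RNA per cell. This holds for the rises as well as the falls in every result below.

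The values were read as log2 ratios, a unit that labels and file headers do not state, so that 1 would stand for a doubling and each fold below rests on this reading. Each is relative to the median of its array. The labels did not say which RNA was the numerator. Arrays of opposite channel order correlated positively (r between 0.638 and 0.762), so the deposited values had already been turned to one direction, and the knockout was treated as the likely numerator. This rests on Tekt2, a tektin of the sperm flagellum that is made after meiosis, which read -5.64, -6.67, -5.35 and -5.25 on replicates 1 to 4 (mean -5.73). Its sign set the direction, so its fall is no finding. It is a weak basis: of 15 genes set as anchors of direction 2 were on the array, and the other, the spermatid gene Oaz3, read -0.77, -0.42 and 0.13 on replicates 1, 2 and 4. Its mean of -0.35 ± 0.25 did not pass the threshold (limma adjusted p = 0.297). No probe was named Spo11, so the targeted gene could not be checked. With the wild type as numerator, all directions below would be opposite. Errors are standard errors of the fit over the arrays, with n = 4 arrays unless another number is given.

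An array gave a value for between 8493 and 9863 of its 16128 probes. Arrays of the same channel order correlated at r = 0.807 (replicates 1 and 2) and 0.679 (replicates 3 and 4). Replicate 4 had a narrower spread than the others, with a standard deviation of 1.16 against 1.37 to 1.42. Ratios beyond 10 in size were positive on replicates 1 and 2 (6 probes each) and negative on replicates 3 and 4 (5 and 2 probes), so their sign followed the channel order. They touched 4 tested genes, none of them called.

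In the knockout 2292 of 4745 genes passed the threshold of an adjusted p under 0.05 (limma with Benjamini-Hochberg adjustment), which is 48.3% of those tested. Of these, 1034 were higher (21.8% of those tested) and 1258 lower (26.5%), and 2262 of the called genes had the same sign on every array with a value. The falls were the larger: 308 genes were lower by 2 or more on the log2 scale and 84 higher by as much, and past 3 the counts were 107 lower and 2 higher. At the level of probes 3734 of 8144 passed (45.8%), 1803 of them higher and 1931 lower. With no centring of the arrays, higher calls outnumbered lower ones, 1187 to 1136. Calls numbered between 1651 and 2228 when single arrays were left out.

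**Figure D1:**
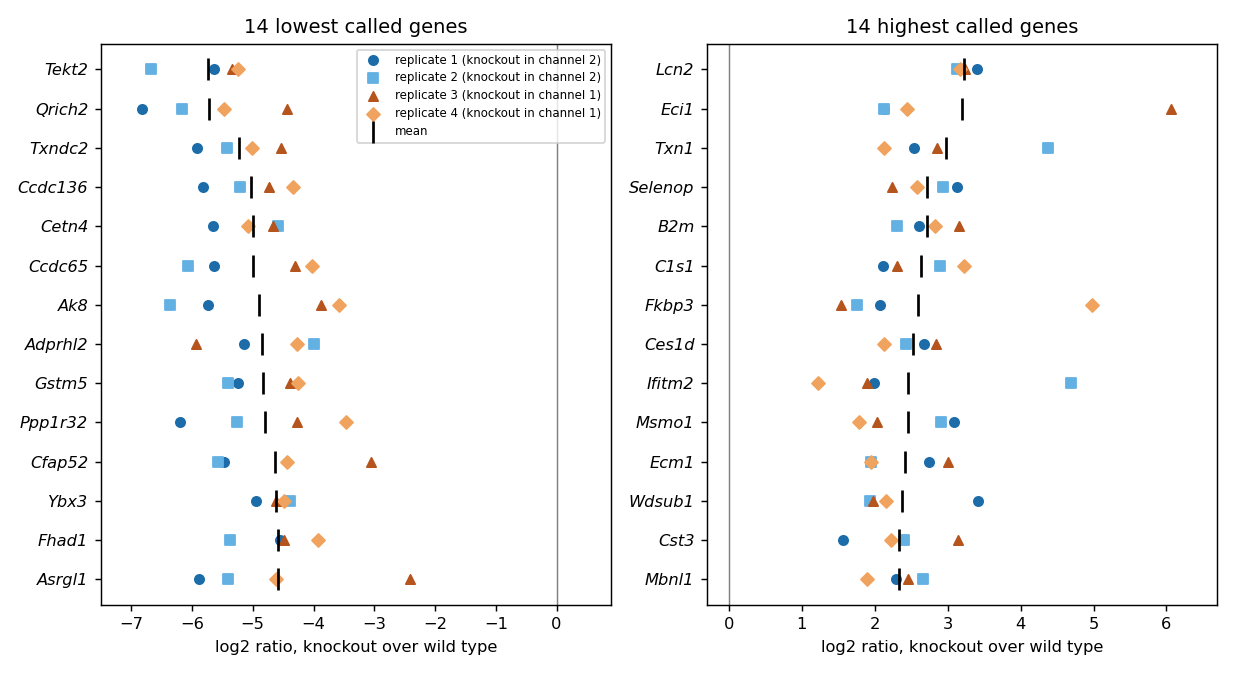
Log2 ratio of knockout over wild type (x axis) for the 14 lowest (left) and 14 highest (right) called genes with values of one sign on all 4 arrays, a point per array and a black tick at the mean. The means of the lowest genes lie between -5.73 and -4.58 and those of the highest between 2.33 and 3.23; for Eci1 and Fkbp3 1 array lies far above the other values.

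Of the 14 lowest genes 4 (Tekt2, Ccdc136, Cetn4 and Cfap52) were on the list of genes of the axoneme, cilia and centrin, the axoneme being the microtubule core of the sperm tail. A place on the list does not show that a gene's product is part of the axoneme, and for Ccdc136 this was not tested. Qrich2 and Ccdc65, also among the 14, were on no list. Qrich2, which sperm need for a normal flagellum, read -6.82, -6.17, -4.43 and -5.48 on replicates 1 to 4. Ccdc65, a part of the nexin-dynein regulatory complex that couples the outer microtubule doublets, read -5.64, -6.06, -4.3 and -4.02. For both genes all 4 arrays lay far below 0, and replicates 1 and 2 were the lowest.

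Of 23 tested genes of the axoneme, cilia and centrin list, 15 fell and 1 rose, with a list median of -1.42 against -0.03 over all genes tested. Without Tekt2, whose sign set the direction, 14 of 22 fell and the median was -1.39. Drc1, another part of the nexin-dynein regulatory complex, was at -4.43 ± 0.21, and Cfap52, a protein inside the doublet microtubules, at -4.64 ± 0.43. The radial spoke genes Rsph9, Rsph3a and Rsph1 were at -3.77 ± 0.48, -3.59 ± 0.19 and -3.43 ± 0.29. Cetn4, a centrin of basal bodies, read -5.66, -4.58, -4.67 and -5.08. The X-linked Cetn2, a centrin of all dividing cells, did not pass (0.51 ± 0.22, n = 3, limma adjusted p = 0.109). Genes of intraflagellar transport, which carries parts into growing cilia, were less far below 0: Ift74 was at -2.04 and Ift81 at -1.09, both called, while Ift88 (-0.56), Ift20 (-0.20) and Ift27 (0.52) did not pass. The member that rose, the adenylate kinase Ak7, was at 1.44 ± 0.41 (n = 3). Its call ended without replicate 1 (1.46) or replicate 2 (0.91).

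Promoters of called axoneme genes are shown because genes of motile cilia are known targets of RFX transcription factors, which bind the half-site GTTGCC. Of the 13 fallen genes of the list that had a RefSeq promoter (250 bases before to 50 after the start, assembly GRCm38.p6), 3 held it on either strand: Tekt2, which is counted and shown here although it set the direction, Drc1 and Dynll1, a light chain of dynein that was at -1.42 ± 0.29. Each sequence is written 5′ to 3′ on the strand of the gene, and capitals mark GTTGCC or its reverse complement GGCAAC. They lie at chr4:126325639-126325938 (Tekt2, minus strand), chr5:30281143-30281442 (Drc1, plus strand) and chr5:115300941-115301240 (Dynll1, minus strand).
Tekt2: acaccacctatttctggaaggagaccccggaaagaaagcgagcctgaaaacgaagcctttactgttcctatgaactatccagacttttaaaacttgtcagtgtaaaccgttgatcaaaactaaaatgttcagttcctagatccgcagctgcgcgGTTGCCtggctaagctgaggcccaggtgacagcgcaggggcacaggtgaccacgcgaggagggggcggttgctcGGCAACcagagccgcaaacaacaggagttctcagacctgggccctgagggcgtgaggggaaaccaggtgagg
Drc1: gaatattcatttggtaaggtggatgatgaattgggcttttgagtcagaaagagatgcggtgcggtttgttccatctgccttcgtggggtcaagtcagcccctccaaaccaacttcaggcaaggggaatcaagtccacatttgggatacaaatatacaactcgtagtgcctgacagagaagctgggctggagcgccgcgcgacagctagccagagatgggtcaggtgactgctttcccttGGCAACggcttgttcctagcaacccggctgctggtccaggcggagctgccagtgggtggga
Dynll1: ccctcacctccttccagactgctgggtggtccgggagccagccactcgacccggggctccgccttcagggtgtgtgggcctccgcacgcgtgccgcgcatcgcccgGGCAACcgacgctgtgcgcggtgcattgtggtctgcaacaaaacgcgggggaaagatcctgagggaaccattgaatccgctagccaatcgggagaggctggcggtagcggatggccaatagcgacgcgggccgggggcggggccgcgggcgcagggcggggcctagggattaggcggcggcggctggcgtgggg
The Tekt2 window held 2 matches, 1 on each strand, and the other windows 1 each. The half-site stood in 12.7% of 27025 mouse promoters of the same length, in 13.4% of the 3887 tested genes with a promoter, in 15.0% of those called lower and in 11.2% of those called higher. It stood in 16.9% of the 266 promoters of genes lower by 2 or more. The palindrome TGACGTCA, the response element of the cAMP pathway that CREM uses in spermatids, stood in 0 of the 13 axoneme promoters. It was in 3.08% of promoters of called lower genes and 3.19% of called higher genes. Both shares were below the 3.63% of all tested genes with a promoter, while all mouse promoters had 1.88%. These are counts of letters in a window, and no test was made of them.

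Of the 59 genes of the haploid list 3 could be tested, and 1 fell and 0 rose. The share that fell was 33.3%, near the 26.5% of all genes tested. Txndc2, a thioredoxin of the sperm tail and the member that fell, read -5.92, -5.43, -4.53 and -5.02 on replicates 1 to 4. Oaz3 (-0.35, given above) and the scaffold gene Akap11 (0.39 ± 0.24, n = 3) did not pass. Genes of other lists were also among the 14 lowest. Ybx3, a Y-box protein that holds stored mRNAs in germ cells and stood on the list of translation and RNA control, read -4.94, -4.38, -4.62 and -4.49 and had 2 probes, at -4.67 and -4.54. Gstm5, a mu class glutathione transferase of the redox list, read -5.25, -5.4, -4.39 and -4.26. No array came near 0 for these 3 genes, and the highest single value was the -4.26 of Gstm5.

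Genes of late spermatocytes and of the meiotic divisions mostly fell: 11 of 14 were lower and 0 higher, with a median of -1.69. The list's median was -2.17, -1.85, -2.06 and -1.25 on replicates 1 to 4. Hspa4l, a chaperone of the Hsp110 family that is abundant in testis, read -3.73, -3.72, -3.87 and -3.59, with little spread between the arrays. Aurkc, the aurora kinase of meiosis, was at -3.48 ± 0.28, Plk1, a kinase of the division spindle, at -2.61 ± 0.21, and Nek2, a centrosomal kinase, at -2.31 ± 0.17. The phosphatase Cdc25c, which starts division, was at -1.94. In contrast Cdk1, the kinase it activates, was at -0.21 ± 0.25 and Aurkb, the aurora kinase of mitosis, at 0.16 ± 0.21, and neither passed.

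The synaptonemal complex is the protein ladder that joins paired chromosomes in meiotic prophase. Of 6 tested genes 2 fell and 0 rose (list median -0.26). The fallen share of 33.3% was near the 26.5% of all genes tested. Both that fell encode central element proteins, which load only where chromosomes synapse. Syce1 read -2.83, -3.45 and -2.56 on replicates 1, 2 and 4, and Syce2 read -1.75, -1.75, -1.29 and -0.97. The central element gene Tex12 was at 0.70 ± 0.33 (n = 3) and did not pass (adjusted p = 0.131, limma). The transverse filament gene Sycp1 read 0.26, 0.18, -1.12 and -0.04, on both sides of 0. Sycp2 and Sycp3, of the axes laid down before synapsis, were at -0.33 ± 0.17 and 0.77 ± 0.28, with limma adjusted p = 0.154 and 0.061. The values of Sycp3 and those of Syce1 or Syce2 did not overlap on the arrays, but this difference was not tested. Tex12, also of the central element, had its mean on the side of Sycp3.

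Cohesins hold sister chromatids together, and some subunits are made only in meiosis. Of 9 tested genes of the cohesin list 5 fell and 1 rose (list median -0.88). The subunits of meiosis were Stag3 at -1.5 ± 0.17, which fell, Smc1b at -0.67 ± 0.18, whose call ended without replicate 2 (-0.64) or replicate 4 (-0.57), and Rec8 at -0.41 ± 0.23, which did not pass. Among general subunits Smc3 was at -2.59 ± 0.23. Rad21, the counterpart of Rec8 in mitosis, rose to 1.09 ± 0.33, a call that ended without replicate 1 (0.84), 2 (0.99) or 4 (1.02). The X-linked Smc1a had the same mean of 1.09 with a wider spread (± 0.39) and did not pass (limma adjusted p = 0.0557). The cohesin loader Nipbl was at -1.29 ± 0.22 and the releasing factor Wapl at -0.88 ± 0.20, a call lost without replicate 1 (-0.94), 2 (-0.88) or 4 (-0.82). Stag1 read 0.93 and 0.07 on replicates 2 and 3 and -6.9 on replicate 4, and its mean did not pass.

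Of 11 tested genes of meiotic recombination and repair 3 fell (27.3%) and 2 rose (18.2%), shares near the 26.5% and 21.8% of all genes tested (list median 0.14). The partners Psmc3ip and Mnd1, which act as a dimer with the recombinases, lay on opposite sides of 0. Psmc3ip read -3.79, -2.5, -0.22 and -2.5 on replicates 1 to 4, and Mnd1 read 2.65, 2.51 and 1.25 on replicates 1 to 3. The arrays of the pair did not overlap, but this difference was not tested. The mean of Psmc3ip was -2.25 ± 0.53, and its call ended without replicate 1 (-1.74) or replicate 2 (-2.17). That of Mnd1 was 2.14 ± 0.33. Each gene had 1 probe. The single-strand binding gene Rpa1 was at -1.2 ± 0.22, whereas Rpa2 and Rpa3 of the same complex (0.45 and 0.46) did not pass. The checkpoint clamp gene Hus1 was at -1.41 ± 0.24 (n = 3). Exo1, a nuclease, rose to 1.12 ± 0.23 (n = 3), and the call was lost without replicate 1 (1.03). The break-signalling kinases Atm and Atr were at 0.14 and 0.27 and did not pass.

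The piRNA pathway silences transposons in germ cells. Of 10 tested genes on the list for this pathway and the germ granule 5 fell and 0 rose (list median -0.96). Gtsf1, a zinc finger protein that acts with the Piwi proteins, read -5.02, -3.73, -3.54 and -3.52, with replicate 1 below the others. The tudor gene Tdrd3 was at -3.02 ± 0.19, the germ cell helicase Ddx4 at -2.20 ± 0.22, Gpat2 at -1.90 ± 0.19 and the helicase Tdrd9 at -1.30. Tdrd3 is counted as a member of the list, and its part in the pathway was not tested. Piwil2 was at -0.62 ± 0.24 and did not pass, and its 3 probes ranged from -2.6 to 0.64. The helicase Mov10l1 was at 0.68 ± 0.37 and did not pass either.

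**Figure D2:**
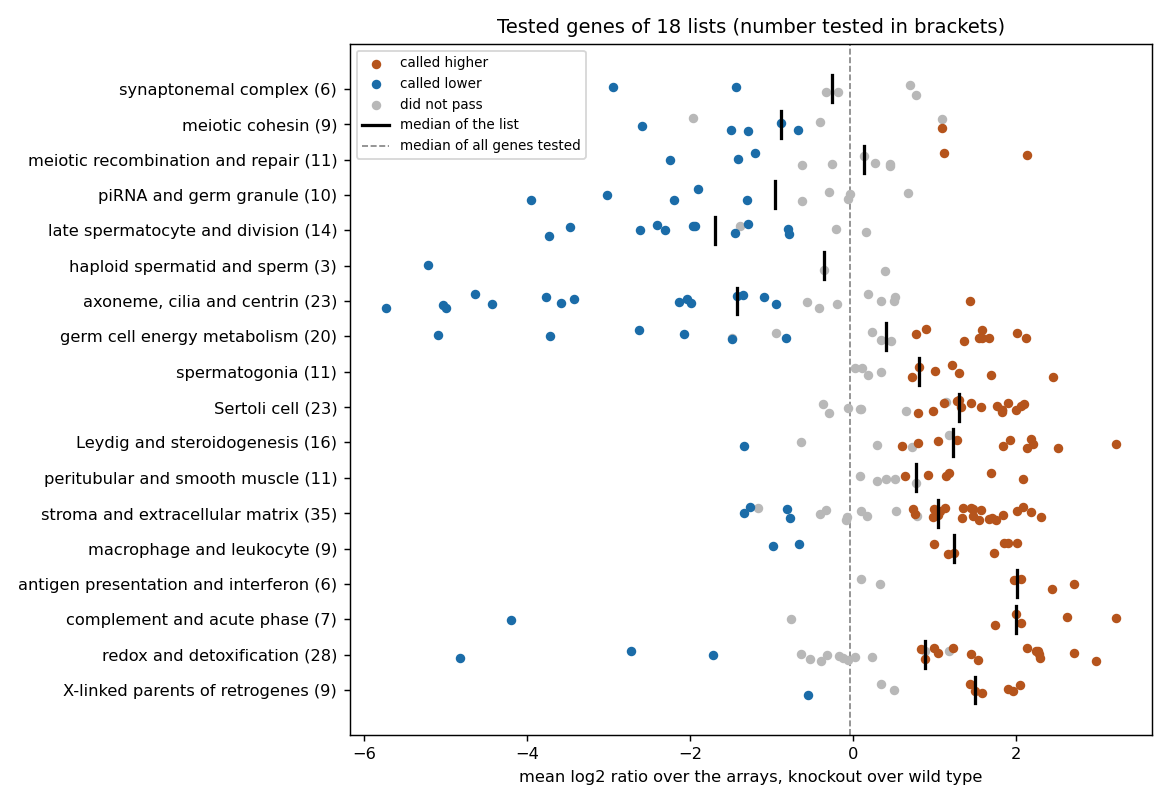
Mean log2 ratio of knockout over wild type (x axis) for each tested gene of 18 lists, coloured by call, with a black tick at the list's median and a dashed line at the median of all genes tested (-0.03). Late spermatocyte and axoneme genes lie mostly below 0, with medians of -1.69 and -1.42, and genes of Sertoli, Leydig, macrophage and stromal cells mostly above it, with medians between 1.04 and 1.30.

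Genes of energy supply in germ cells went both ways, with 9 higher and 6 lower of 20 and a median of 0.41. Hexokinase Hk1, the first enzyme of glycolysis, read -5.2, -5.89 and -4.19 on replicates 1, 2 and 4. The glucose transporter Slc2a3 read -4.27, -3.55, -3.5 and -3.55. The lactate carrier Slc16a3 was at -2.08 ± 0.31, whereas the carrier Slc16a1 was at 1.67 ± 0.20 (n = 3). Lactate dehydrogenase Ldhb rose to 2.01 ± 0.24. Its partner Ldha read -1.81, -2.23, 1.07 and -0.84, and did not pass. Acaa2, a thiolase of fatty acid oxidation in mitochondria, read 2.15, 2.11, 2.41 and 1.84.

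Some germ line genes have a close relative that is used in other cells. The cytochrome oxidase subunit Cox6b2 of testis read -2.97, -2.26, -2.54 and -2.77, and the general Cox6b1 read 1.39, 0.91, 2.36 and 1.67. Rpl39l, an autosomal copy of a ribosomal protein gene, was at -2.13 ± 0.29, and its X-linked parent Rpl39 at 1.5 ± 0.30. Ddx3x, an X-linked RNA helicase, was 3.96, 3.27, 3.78 and 2.98 above its autosomal retrogene D1Pas1 on replicates 1 to 4. Rpl39 was 3.84, 4.95, 2.7 and 3.04 above Rpl39l. In each of the 3 pairs every array had the general gene above 0 and the germ line copy below it. Such copies are close in sequence, and whether a probe also bound the RNA of the other copy was not tested.

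**Figure D3:**
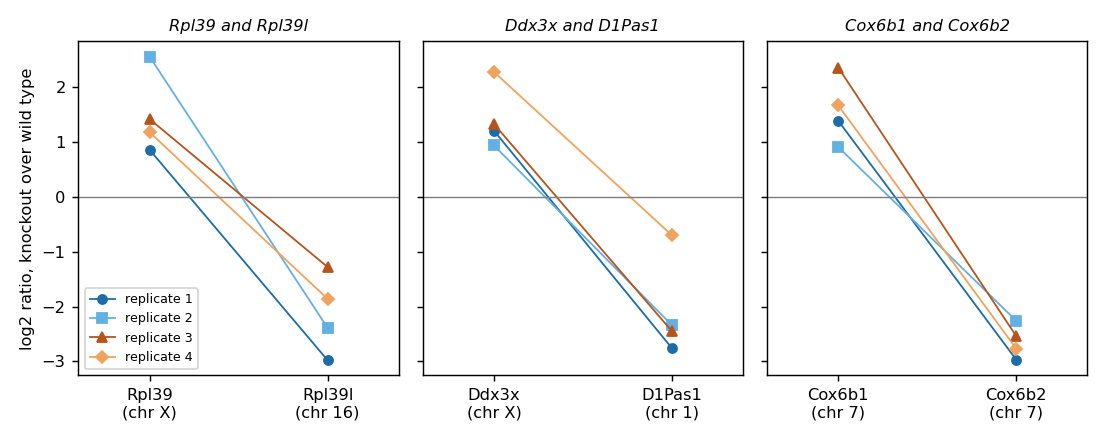
Log2 ratio of knockout over wild type (y axis) on each array for a generally used gene (left of each panel) and its germ line relative (right), with lines joining values of one array. All 4 arrays fall from above 0 to below 0 in each of the 3 panels, with means of 1.5 and -2.13, 1.44 and -2.06, and 1.58 and -2.63.

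The X chromosome is silenced in spermatocytes at pachytene, when the X and Y are packed into the sex body, and many X-linked genes have autosomal retrogenes that are used in its place. Of 131 tested X-linked genes 64 were called higher (48.9%) and 9 lower (6.87%), with a median of 0.86. On the 19 autosomes between 15.7% and 25.8% of tested genes were called higher and between 23.5% and 30.7% lower, and their medians lay between -0.22 and 0.06. The X-linked median was 0.79, 0.80, 0.86 and 0.61 on replicates 1 to 4, and that of autosomal genes -0.12, -0.11, 0.01 and -0.03. X-linked genes are part of several lists described here.

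The X-linked genes furthest up were Pgrmc1, a haem-binding membrane protein, at 2.67 ± 0.27 (n = 3), and Tmsb4x, the actin-binding thymosin, at 2.27 ± 0.17. Next came Sh3bgrl at 2.26 ± 0.23 (n = 3) and Sat1, which acetylates polyamines, at 2.15 ± 0.20 (n = 3). Tmsb4x read 2.2, 2.15, 2.58 and 2.15 on replicates 1 to 4. Those furthest down were the tetraspanin Tspan6 at -3.48 ± 0.30 (n = 3), Gm9 at -2.63 ± 0.19, Plac1 at -1.88 ± 0.23 and the thioesterase Acot9 at -1.39 ± 0.26 (n = 3), whose call was lost without replicate 1 (-1.30). Of the 9 X-linked parents of retrogenes 6 rose and 1 fell (list median 1.5). The ribosomal protein genes Rpl10 and Rps4x read between 1.99 and 2.1 and between 1.64 and 2.1. Pdha1, of pyruvate dehydrogenase, was at 1.59 ± 0.32 (n = 3), a call lost without replicate 1 (1.31), and Rbmx at 1.96 ± 0.49 (n = 3), lost without replicate 1 (1.52) or 2 (1.67). The member that fell, Prps1 at -0.55 ± 0.18, lost its call without any 1 of the arrays (-0.64 to -0.44) and with no centring (-0.45).

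**Figure D4:**
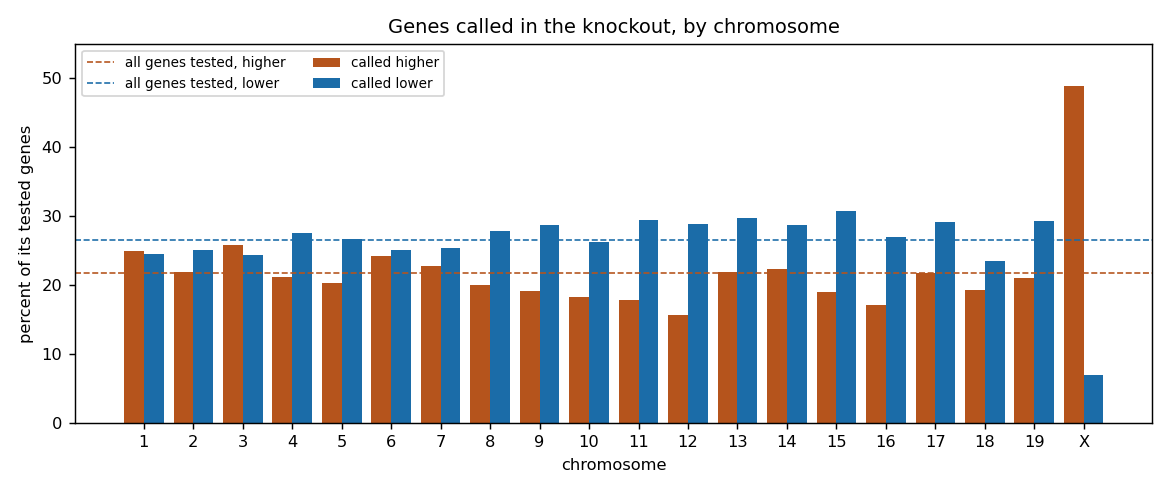
Percent of the tested genes of each chromosome (y axis) called higher or lower in the knockout, with dashed lines at the share over all genes tested (21.8% and 26.5%). The X bars stand at 48.9% higher and 6.87% lower, outside the range of the 19 autosomes.

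Genes of spermatogonia, the cells before meiosis, were at or above 0: 7 of 11 rose and 0 fell (list median 0.81). Etv5, a transcription factor that spermatogonial stem cells need, read 1.8, 2.65 and 2.92 on replicates 1 to 3. The X-linked germ cell genes Taf7l, a transcription cofactor, and Nxf2, an RNA export factor, were at 1.70 ± 0.17 and 1.30 ± 0.18. Foxo1, which controls stem cell upkeep, was at 1.22 ± 0.24. Its call was lost when 1 of its 2 probes was used (1.03). Sohlh1, which drives spermatogonial differentiation, was at 0.19 ± 0.23 (n = 3), and the RNA-binding gene Dazl ranged from -2.31 to 2.31 and did not pass.

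Sertoli cells nurse the germ cells. Of 23 tested genes of their list 16 rose and 0 fell. The list's median was 1.30, and 1.25, 1.29, 1.46 and 1.38 on the arrays. Psap, whose product serves lysosomes and is secreted, was at 2.10 ± 0.22, the protease Ctsl at 2.06 ± 0.21, the secreted chaperone Clu at 2.0 ± 0.18 and Gatm, of creatine synthesis, at 1.90 ± 0.19. Among transcription factors of the list Wt1 at 1.83 ± 0.28 (n = 3), Gata4 at 1.12 ± 0.17 and the X-linked Rhox5 at 1.33 ± 0.27 rose. Gata1 (0.10 ± 0.17) and Gata6 (-0.06 ± 0.24, n = 3) did not pass (limma adjusted p = 0.637 and 0.844). The hedgehog ligand Dhh was at 1.30 ± 0.18. Inha, a subunit of the hormone inhibin, read 1.91, 1.13, 2.1 and 1.95. The junction genes Cdh2 (-0.37) and Gja1 (0.09) did not pass.

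Leydig cells make testosterone. Of 16 tested genes of their list 11 rose and 1 fell (list median 1.23). The list, which also holds Lcn2, Ces1d and Ephx1, was chosen with earlier results of these data known. Its counts are therefore no independent support for a change in Leydig cells. Cyp11a1, which makes pregnenolone from cholesterol, read 2.6, 1.84, 2.45 and 1.88, and Hsd3b1, a dehydrogenase of the same route, read 3.57, 1.5, 1.96 and 1.83. Cyp17a1, which forms androgen precursors, was at 1.93 ± 0.23 (n = 3). Lcn2, a lipocalin that binds iron carriers, read 3.4, 3.13, 3.24 and 3.17 and was the highest called gene, 9.42-fold. The carboxylesterase Ces1d was at 2.52 ± 0.19 and the epoxide hydrolase Ephx1 at 2.14 ± 0.18. Their 4 arrays lay above 0 with little spread. Pdgfra, the member that fell, was at -1.34 ± 0.26. The epididymis list had 1 tested gene of 23, Npc2 at 0.92 ± 0.17, which rose, and the adipose list 1 of 13, which did not pass; the part of such tissue in these values was not tested. In cholesterol synthesis, which feeds the steroid route, 2 of 8 genes rose and 2 fell (25.0% each). These shares were near the 21.8% and 26.5% of all genes tested. Msmo1 was at 2.45 ± 0.27 and Fdft1, which commits the route to sterols, at -2.19 ± 0.16. Hmgcs1 rose by 0.88 ± 0.19, a call lost with 1 of its 2 probes (0.29), and Scap fell to -1.01 ± 0.23, a call lost without replicate 1 (-0.88) or 2 (-0.85).

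Muscle and matrix genes of the tubule wall and interstitium were mostly above 0. In the peritubular and smooth muscle list 6 of 11 rose and 0 fell (list median 0.77). They included the myosin light chain Myl9 at 2.09 ± 0.22 and the tropomyosin Tpm1 at 1.69 ± 0.18. In the stroma and matrix list 22 of 35 rose and 4 fell (list median 1.04). Igfbp3, which binds insulin-like growth factors, was at 2.31 ± 0.37, the collagens Col18a1 and Col3a1 at 2.19 ± 0.38 and 2.09 ± 0.26, and the proteoglycan Dcn at 2.02 ± 0.27. Mmp2, a collagenase of type IV collagen, was at -1.26 ± 0.27, and Col12a1 at -0.81 ± 0.27, a call lost without replicate 1 (-0.67) or 2 (-0.59) and with no centring (-0.72). For endothelium 1 of 19 genes could be tested, Cd34, which read -0.35, 1.1, -1.2 and -0.59. Of 3 tested erythrocyte genes the haemoglobin gene Hbb-b1 was at 1.2 ± 0.25 and Bpgm at -2.15 ± 0.23.

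Immune genes rose beside these. In the macrophage and leukocyte list 7 of 9 rose and 2 fell. The list's median was 1.24, and 1.26, 1.36, 1.48 and 1.44 on the arrays. Lyz2, the lysozyme of macrophages, read 1.82, 2.03, 1.97 and 2.27, and the complement gene C1qa read 2.02, 1.36, 1.85 and 1.69. The Fc receptor Fcgr3 was at -0.98 ± 0.24, a call lost without replicate 1 (-0.90) or 2 (-0.79), and Laptm5 at -0.66 ± 0.18, lost without replicate 2 (-0.60), 3 (-0.59) or 4 (-0.69). In antigen presentation and interferon response 4 of 6 rose and 0 fell (list median 2.02), led by B2m, the light chain of MHC class I, at 2.72 ± 0.20. Ifitm2 read 1.99, 4.69, 1.9 and 1.22, with replicate 2 far above the others. In complement and acute phase 5 of 7 rose and 1 fell (list median 2.0). Among those that rose were Clu, also on the Sertoli list, and Lcn2, also on the Leydig list. The counts of these lists are therefore not independent. The protease C1s1 and its inhibitor Serping1 were at 2.63 ± 0.24 and 2.06 ± 0.18, while Cd55, a membrane inhibitor of complement, read -4.36, -4.54, -3.88 and -4. Macrophage genes rose on the same arrays as these, and their part in the immune values was not tested.

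Enzymes of redox defence had different signs within families. Of 28 tested genes 14 rose and 3 fell (list median 0.89). Txn1, thioredoxin, read 2.54, 4.38, 2.86 and 2.13, and the selenium carrier Selenop read 3.13, 2.93, 2.23 and 2.58. The glutathione peroxidase Gpx1 was at 2.29 ± 0.17, and Gpx4, the peroxidase of membrane lipids that sperm store in quantity, at -2.73 ± 0.19. The transferases Gsta4 and Gstp1 were at 2.30 ± 0.17 and 1.54, and the mu class Gstm1, Gstm2 and Gstm6 at 0.89, 0.99 and 1.45, all called higher, against the -4.83 of Gstm5. The probes of Gstm1 and Gstm2 disagreed: the 3 of Gstm1 lay between -1.88 and 2.29, and with 1 probe per gene its value turned to -1.88. The 2 of Gstm2 were at -0.13 and 2.11, and with 1 probe per gene its value was 2.11. The mu class genes are near copies of each other, and cross-binding of their probes was not tested. Lysosomal cathepsins, a list made after their values were seen, were higher in 7 of 7 cases between 0.89 and 2.21. Ctsd, an aspartic protease, read 2.21, 2.16, 2.61 and 1.85, and the cathepsin inhibitor Cst3 read 1.56, 2.4, 3.14 and 2.22. The call of Ctsc (0.89 ± 0.21, n = 3) was lost without replicate 1 (0.79) or 2 (0.94).

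The comparison most like the knockout is that of testis from wild type mice of 15 days with adult wild type testis, on 4 other arrays, since at that age the first wave of germ cells is still in meiotic prophase. Whether both comparisons used the same adult wild type RNA was not stated. In a limma fit of both groups 98 of 4655 genes differed between the knockout ratio and the 15 day ratio (2.11%), 90 with the knockout ratio higher (1.93%) and 8 with it lower (0.172%), and 770 had an unadjusted p under 0.05 (16.5%). Of the 90, 44 were above 0 in the knockout and below 0 at 15 days, 41 above 0 in both and 5 below 0 in both. Of the 8 lower ones 6 were below 0 in both. The knockout arrays were numbered apart from all 15 day arrays, so the run of arrays and the comparison cannot be told apart in this contrast. The 15 day ratio also sets young mice against adults, while the age of the knockout mice was not given. Genotype and age thus cannot be told apart here either. The 15 day values were read as 15 day over adult, a direction that the labels do not state, and the contrast rests on both readings. The count depended on single arrays: 15 without 15 day replicate 3, 19 without replicate 1, 21 without replicate 4 and 54 without replicate 2 of that group, and 50 and 60 without knockout replicates 1 and 4. For some fallen genes 15 day replicate 2 lay nearer 0 than the other 15 day arrays. Cetn4 read -4.29, -2.28, -3.76 and -3.59 on 15 day replicates 1 to 4, and Drc1 read -4.38, -2.33, -3.67 and -4.1. Ddx4 went the other way, at -1.04, -1.68, -1.15 and -1.07. How many genes this concerned was not counted.

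The widest differences were those of genes on the Leydig list, among them the steroid enzymes Cyp17a1 and Cyp11a1. The list also holds Lcn2, Ces1d and Ephx1 and was chosen with earlier results of these data known. Its place at the top and its counts here are therefore no independent support for a change in Leydig cells. Lcn2 stood at -3.96, -4.88, -4.3 and -4.13 on the 15 day arrays, and its difference was 7.55 (limma adjusted p = 2.07e-07). Ces1d read -2.37, -2.52, -3.46 and -2.67 there and differed by 5.27 (limma adjusted p = 1.20e-05), Ephx1 differed by 4.6 and Cyp11a1 by 4.21. Cyp17a1, with a mean of -2.91 at 15 days, differed by 4.83. For each of these 5 genes the knockout arrays all lay above 0 and the 15 day arrays all below it. They were named for their wide differences, so this is no separate result. Of the 16 tested Leydig genes 8 were higher and 1 lower in the contrast, and their median was 1.23 in the knockout and -0.33 at 15 days. The lower one, Cyp2s1, a cytochrome P450, was at -0.64 in the knockout and 1.39 at 15 days, both with n = 3. Its call was lost without 15 day replicate 1 (-2.12), 3 (-2.11) or 4 (-1.86). The dehydrogenase Hsd3b1, with a difference of 1.98, did not pass (limma adjusted p = 0.0643).

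Other genes named from this contrast were Prnd, a prion-like gene of testis, with a difference of 3.07, and Bhmt, which remethylates homocysteine, with 3.61. The 15 day arrays of Bhmt read -3.23, 0.04, -2.16 and -1.95, and its call was lost without knockout replicate 1 (3.54) or 15 day replicate 3 (3.50) or 4 (3.57). Of the Sertoli genes 4 of 22 were higher in the contrast (Clu, Ctsl, Psap and Scarb1) and of the macrophage genes 4 of 9. Of the redox genes 7 of 28 were higher with 1 lower, and of the cathepsins 6 of 7. Over all genes tested in both, 1.93% were higher and 0.172% lower. The cathepsin list was made after the values were seen, so its count is no independent support. The counts of these lists share genes and are not independent. Ctsl and Ctsb were also cathepsins, Scarb1 was also on the Leydig list, and Ephx1 and Cyp2s1 were on the Leydig and redox lists. Each of the 4 Sertoli calls was lost when some single arrays were left out, that of Clu (difference 1.34) without 15 day replicate 1 (1.32) or 3 (1.36). Among the redox genes were Gstm1 and Gstm2, and the difference of Gstm1 was -0.16 with 1 probe per gene. B2m differed by 1.86 and kept its call without each array in turn. Gpx1 differed by 2.52, and its 15 day arrays read 0.07, -1.66, 0.33 and 0.32. Its call was lost without knockout replicate 2 (2.44), without 15 day replicate 1 (2.62), 3 (2.71) or 4 (2.71), and with arrays scaled to 1 spread (2.33). Of the lists of germ cells, calls were made for 1 of 14 late spermatocyte genes, Hspa4l, and 0 each of the 23 axoneme, 11 spermatogonial, 10 piRNA and 6 synaptonemal genes in limma. At an unadjusted p under 0.05 these 4 lists had 8, 3, 6 and 2 genes, where 16.5% of all genes did. The missing calls do not show that the ratios were alike. Sycp1 was at -0.18 in the knockout and 1.10 at 15 days (difference -1.28 ± 0.30, limma adjusted p = 0.0732). Of 125 X-linked genes tested in both, 4 were higher and 0 lower in the contrast, with medians of 0.86 and 0.57.

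**Figure D5:**
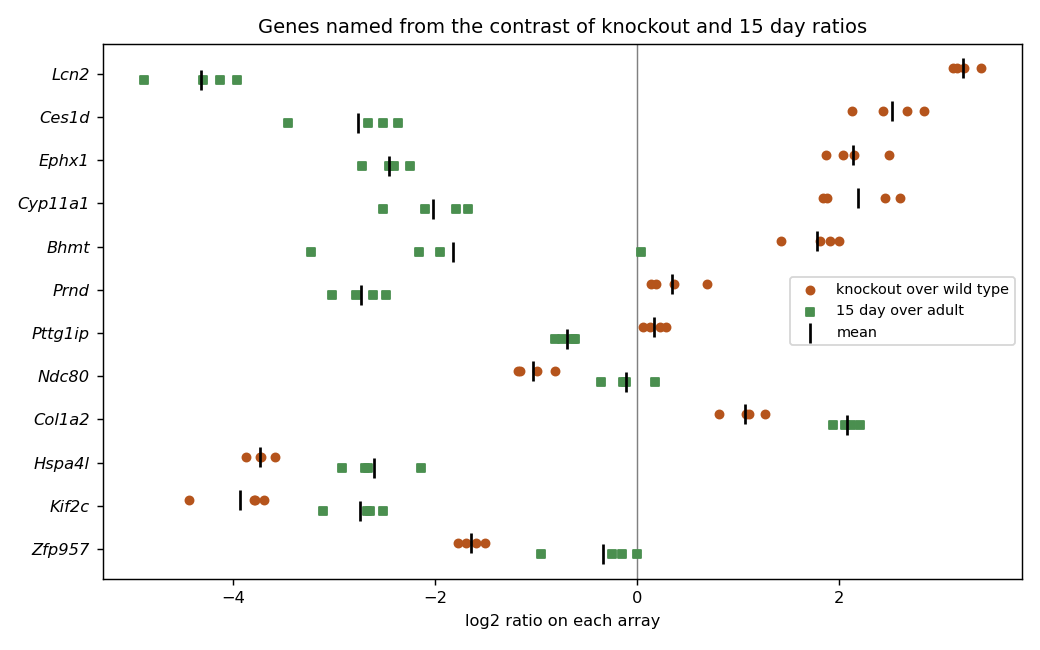
Log2 ratios (x axis) of 12 genes named from the contrast, with a point for each knockout array and for each 15 day array and black ticks at the means. For Lcn2, Ces1d, Ephx1 and Cyp11a1 the knockout arrays lie at 1.84 or above and the 15 day arrays at -1.68 or below, while Hspa4l and Kif2c are below 0 in both and lower in the knockout.

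The knockout ratio was lower for 8 genes. The widest of these differences was that of B9d1, a protein of the transition zone at the base of cilia, at -3.33 in the knockout and -1.15 at 15 days (-2.19 ± 0.43, limma adjusted p = 0.0443), followed by the -2.03 of Cyp2s1. The small GTPase-like gene Rabl3 was at -1.5 and -0.22, a difference of -1.28. B9d1 and Rabl3 lacked a value on some arrays and were named after their values were seen. Hspa4l was at -3.73 in the knockout and -2.61 at 15 days, a difference of -1.12 ± 0.21. Kif2c, a kinesin that takes microtubules apart at centromeres, was at -3.93 and -2.74, Ndc80, of the outer kinetochore, at -1.03 and -0.11, and the zinc finger gene Zfp957 at -1.65 and -0.34. The collagen Col1a2 was above 0 in both, at 1.07 and 2.08. For these 5 genes the knockout and 15 day arrays did not overlap. They were named because the contrast called them, so such separation is largely built into the choice. Each of the 5 calls was lost when single arrays were left out. With arrays scaled to 1 spread the difference of Hspa4l was -0.29 and that of Kif2c -0.27 (limma adjusted p = 0.53 and 0.62). The call of Ndc80 was also lost with no centring (-0.88), with centring on the mean (-0.93) and with scaling (-0.77).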

How the data were processed

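The authors deposited 1 value per probe and array, read here as log2 ratios of the 2 channels, although neither labels nor file headers state unit, dyes, scanning or background correction. Without intensities no filter on dim probes was possible. Each array was centred on its median, and gene values are means per array over probes with 1 gene symbol (9604 of 9817 annotated probes; 9496 matched RefSeq, GRCm38.p6, by gene identifier). Probes with 3 or more values entered limma 3.58.1 in R 4.3.3 (intercept only, eBayes, Benjamini-Hochberg), and the contrast with 15 days fitted a mean per group over 8 arrays. Scripts were tested on simulated data. Named genes were the 14 highest and 14 lowest called genes with 4 values of 1 sign, up to 4 called members per list in its main direction and 3 in the other, the 4 X-linked genes at each end, the 6 at each end of the genes called in the contrast with values on all 8 arrays (only 5 were lower, so Pttg1ip, whose difference of 0.88 is higher in the knockout, is the sixth), and the direction anchors; further list members were named after their values were seen. Members and lists were chosen with earlier results of these data known. Kinase genes were taken out of the ribosomal list, and the cathepsin list was added, after the values were seen.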

Additional observations from a re-analysis of the deposited data

Results flagged for a closer look

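Of 141 named genes with values on all 4 arrays, 11 had 1 array that stood apart from the other 3 by more than Dixon's critical value allows; chance flags about 1 in 20 such groups. Replicate 1 was the array concerned for Slc2a3 (-4.27, others between -3.55 and -3.5), Gtsf1 (-5.02, others between -3.73 and -3.52), Kif2c (-4.44, others between -3.79 and -3.7), Mcm7 (-2.41, others between -1.02 and -0.83) and Wdsub1 (3.41, others between 1.93 and 2.15). Replicate 2 stood apart for Psap (2.75, others between 1.83 and 1.92) and Kdm5c (0.8, others between 1.48 and 1.55). For replicate 3 the genes were Eci1 (6.06, others between 2.13 and 2.44), Tdrd3 (-3.5, others between -2.89 and -2.79) and Tmsb4x (2.58, others between 2.15 and 2.2). Replicate 4 stood apart for Fkbp3 (4.98, others between 1.54 and 2.07). All 4 arrays of each of the 11 genes had the same sign.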

How the results depend on the processing

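The 2292 called genes numbered 1451 at an adjusted p under 0.01 (605 higher in the knockout against 1034, 846 lower against 1258), and the 3734 called probes 2268. Leaving out 1 knockout array gave 1651 to 2228 genes, 726 to 972 higher and 925 to 1256 lower, and 2547 to 3632 probes, and 1510 genes kept their call without each array in turn. The other alternatives kept these counts within 1.5 times. Of the 98 genes of the contrast with 15 days, 16 were left at an adjusted p under 0.01. It called 10 genes with 15 day replicates 1 and 2 alone and 13 with replicates 3 and 4 alone, and leaving out 1 array gave 15 to 77. Of 165 named called genes 145 kept the call in every alternative run, and 13 of the other 20 lost it only when an array was left out. With 1 probe per gene Pttg1ip turned to -0.18 from 0.17, neither past the threshold, and Gstm1 to -1.88 from 0.89; 6 genes of the whole fit were called in the opposite direction in some alternative. Without centring, ratios rose by the array medians, 0.06 to 0.13. No paired analysis was possible because the labels give these arrays no replicate numbers shared with another group. Signal over background was not known, so weak probes could not be told from strong ones.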

Other observations

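Gene groups used in most cells went both ways in the knockout. Over all genes tested 21.8% rose and 26.5% fell. Of 70 ribosomal protein genes 18 rose (25.7%) and 6 fell (8.57%). The list's median was 0.22, and -0.17, 0.13, 0.51 and 0.25 on the arrays. Rpl10, Rps4x and Rpl39, all X-linked, were among those that rose, and Rpl39l, Rpl22l1 (-1.33 ± 0.25) and Rpl36 (-0.94 ± 0.20) among those that fell. Of 53 genes of the respiratory chain and ATP synthase 8 rose (15.1%) and 10 fell (18.9%), with a list median of -0.10. Cox8a, of cytochrome oxidase, was at 1.39 ± 0.17 and Ndufv2, of complex I, at -1.68 ± 0.24 (n = 3). Of 34 proteasome genes 4 rose and 8 fell (median -0.04): Psmc3 and Psmc2, of the base of the cap, were at -2.32 ± 0.31 and -2.20 ± 0.19, and the core gene Psma7 at 1.84 ± 0.17. Chaperone genes fell more often than they rose, 18 against 8 of 43, with a median of -0.45. The co-chaperones Bag5 and Dnajb1 were at -2.92 ± 0.25 and -2.66 ± 0.30 and the chaperonin Tcp1 at -2.25 ± 0.19, while the small heat shock gene Hspb1 was at 1.72 ± 0.22.

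Of 44 genes of translation factors and RNA control 16 fell and 5 rose (median -0.27). Cpeb2, which binds the tails of stored mRNAs, was at -4.42 ± 0.47 and Pabpc1, which coats poly(A), at -2.36 ± 0.22. Of 25 genes of histones and germline chromatin 9 fell (36.0%) and 8 rose (32.0%), with a median of -0.18. Suv39h2, a methylase of histone H3 in germ cells, read 1.52, 2.07, 1.76 and 1.75, and Brdt, a bromodomain gene of meiotic and later germ cells, was at -2.19 ± 0.28, with 3 probes between -2.86 and -0.12. Of 27 genes of cell cycle and DNA replication 10 rose (37.0%) and 8 fell (29.6%), with a median of 0.02. Among them were Cdt1, which licenses origins, at 2.16 ± 0.25 (n = 3) and Uhrf1, which keeps DNA methylation, at -1.47 ± 0.26. Of 16 genes of apoptosis and the DNA damage response 7 rose (43.8%) and 3 fell (18.8%), with a median of 0.41. The stress gene Sesn1 was at 1.78 ± 0.39 (n = 3) and the phosphatase Ppm1d, which ends damage signals, at -2.82 ± 0.19. Among genes with several tested probes, the probes had the same sign for 646 of 971, and for 422 of the 478 that were called.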
